A study of Bos taurus with 2 samples.

Results

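The SLC25 family of mitochondrial carriers, with the uncoupling proteins UCP1 to UCP3 that belong to it, was followed in bovine seminiferous tubules at 2 ages. Members were the rows of the deposited tables whose symbol begins with SLC25A and a number or is UCP1, UCP2 or UCP3. This gave 46 of 24616 listed genes, each with a single row. SLC25A2, SLC25A10, SLC25A18, SLC25A51 and SLC25A52, sought for the role groups below, were not listed under these symbols. Tubule tissue came from a calf aged 9 months and from a calf aged 3 months, both Bos taurus (cattle), with 1 library of total RNA for each. The labels name no breed, treatment or genotype. With 1 library per age, every difference below compares these libraries and has no replicate check.

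SLC25 proteins sit in the inner membrane of the mitochondrion, and a few in its outer membrane or in peroxisomes. Most exchange or carry a small set of metabolites across the membrane. The ADP/ATP carriers bring ADP in and let newly made ATP out. Other members move phosphate, citrate, malate, amino acids, nucleotides, vitamins and iron. In mice SLC25A31 is an ADP/ATP carrier of male germ cells and is needed for meiosis in the testis.

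Depth was 29782234 counts at 9 months and 37600534 at 3 months, where each age stands for its only library. Levels are given as scaled RPKM, the RPKM unit with the TMM effective library size in place of the library total, so that they can be set side by side between genes and between libraries. A fold is the quotient of the scaled counts, and brackets hold its 95% exact interval, which covers counting error only. Log2 ratios set 9 months over 3 months and include a prior count of 2, and CPM is the same scale as scaled RPKM without the gene length. Genes are called higher or lower only past 2-fold and with an interval that left out a ratio of 1. Reads from near-identical copies may have been split, dropped or credited to several copies in counting. This touches the ADP/ATP carriers most, so their levels are uncertain to that extent. Strand use is not stated either, so a member's reads cannot be told from those of a gene that overlaps it.

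The libraries differed widely in cell type markers. All 8 markers of spermatocytes and spermatids were higher at 9 months, with a summed expression of 2681 CPM at 9 months and 30.3 CPM at 3 months. ODF1 had 0 counts at 3 months. The 5 markers of Leydig cells, which lie between the tubules, were all lower, with 2722 CPM at 9 months and 17508 CPM at 3 months. Of the 7 Sertoli cell markers 4 were lower, 1 was higher and 2 lay within 2-fold, with 758 CPM at 9 months and 4037 CPM at 3 months. No Leydig or Sertoli marker was at 0 counts in either library. Of the 5 peritubular myoid markers 2 were higher, 1 was lower and 2 lay within 2-fold, with 599 CPM at 9 months and 226 CPM at 3 months. Of the 5 endothelial and leukocyte markers 1 was higher, 2 were lower and 2 lay within 2-fold, with 122 CPM at 9 months and 110.2 CPM at 3 months. The part of these shifts in any result below was not tested. In such bulk tissue, fewer cells of a type and less RNA per cell cannot be told apart.

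Among the carriers, SLC25A31 and UCP2 were far more abundant at 9 months, while SLC25A6 and SLC25A5 were far less abundant. Of the 46 members 43 had at least 10 counts over both libraries. Of these, 7 were higher, 12 were lower and 24 lay within 2-fold. These were 16.3% and 27.9% of the measured members for higher and lower, against 28.0% higher and 22.8% lower among all 18025 measured genes. The median log2 ratio was 0.07 over the members and 0.02 over all measured genes. With plain library totals, which shift every log2 ratio by 0.45, 15 members were higher and 7 lower, and of all measured genes 36.2% were higher and 14.7% lower. All 7 higher calls held under each of the 4 scalings compared, as did 7 of the lower calls, those of SLC25A43, SLC25A6, SLC25A5, SLC25A34, SLC25A27, SLC25A30 and SLC25A16. The shift of 0.45 is upward and could remove lower calls only. The only downward shift, with upper-quartile scaling, was -0.10, and the smallest log2 ratio of a higher call was 1.49, for SLC25A33. No higher call could thus be lost, and the comparison does not show them to be firmer than the lower calls. With plain library totals SLC25A1, SLC25A3, SLC25A11, SLC25A15 and SLC25A23 lay within 2-fold, while SLC25A13, SLC25A21, SLC25A22, SLC25A26, SLC25A32, SLC25A35, SLC25A39 and SLC25A40 were higher.

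**Figure D1:**
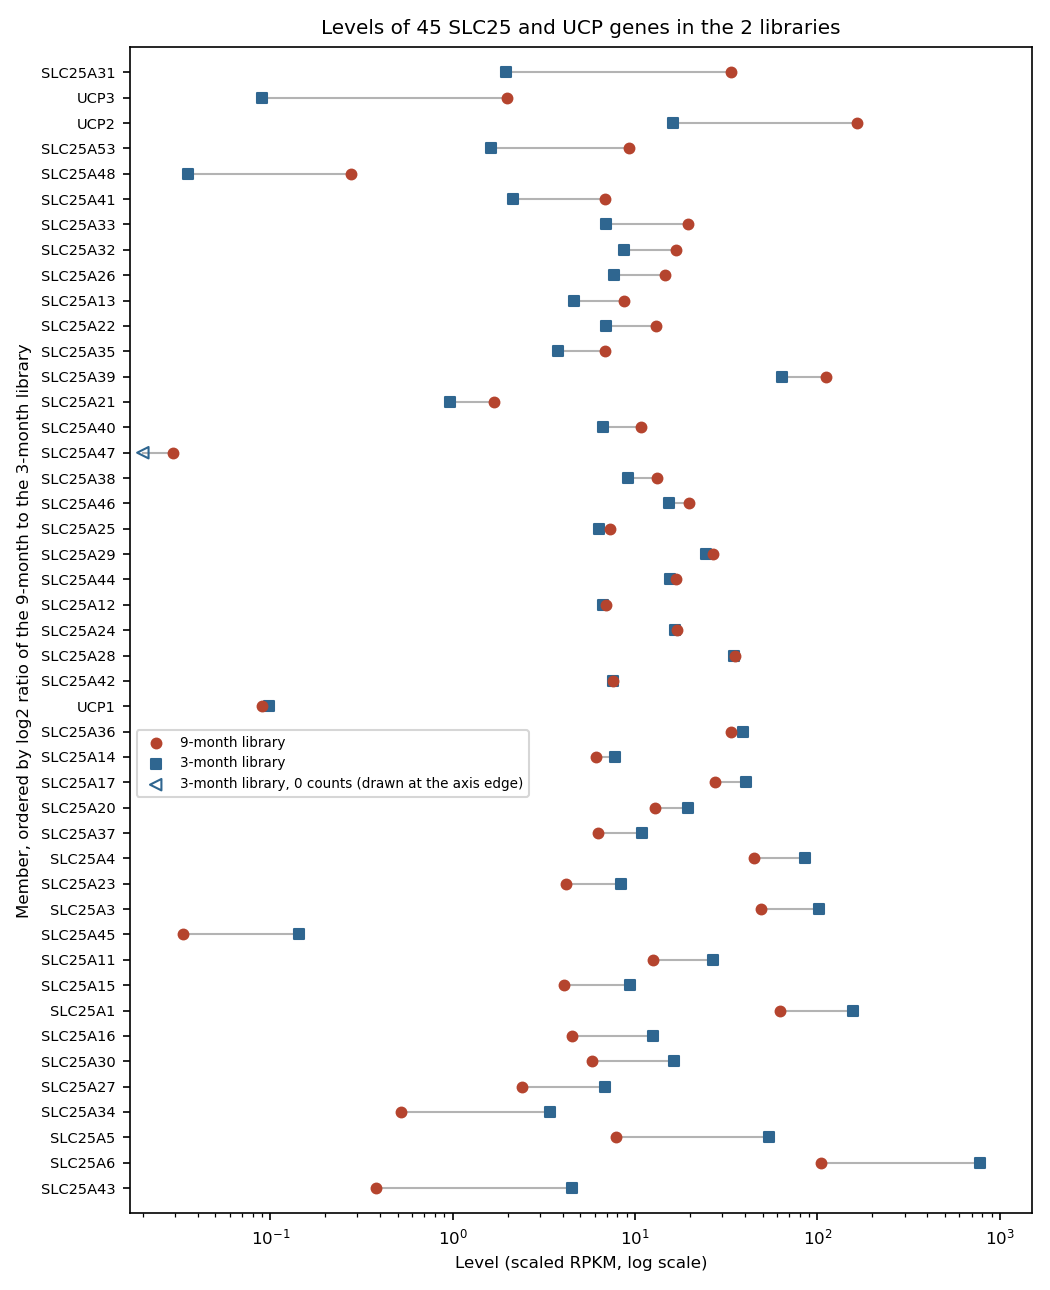
Level of 45 members in scaled RPKM on a log axis, with circles for the 9-month library and squares for the 3-month library, ordered from the highest to the lowest log2 ratio. SLC25A6 stands at 105 at 9 months and 775 at 3 months, and UCP2 at 165 at 9 months and 16.1 at 3 months.

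Among the members the order of abundance changed at its head. SLC25 relatives listed under other symbols are not ranked here. The most abundant members at 9 months were UCP2 at 165, SLC25A39 at 112, SLC25A6 at 105, SLC25A1 at 62.5 and SLC25A3 at 49.2 scaled RPKM. In the 3-month library they were SLC25A6 at 775, SLC25A1 at 157, SLC25A3 at 101, SLC25A4 at 84.9 and SLC25A39 at 64.1 scaled RPKM. A single gene, SLC25A6, made up 10.8% of the summed level of all members at 9 months and 46.9% at 3 months. UCP2 made up 17.04% at 9 months and 0.973% at 3 months. Summed over all members the level was 968 scaled RPKM at 9 months and 1652 at 3 months, a ratio of 0.586. The same sum over all measured genes had a ratio of 0.492, so the member sum fell less than that background. Without SLC25A6 the member sums were 863 scaled RPKM at 9 months and 877 at 3 months. Without SLC25A6 and UCP2 they were 698 at 9 months and 861 at 3 months. In raw counts, all members took 0.185% of the library at 9 months [0.184 to 0.187] and 0.206% at 3 months [0.205 to 0.208]. Without SLC25A6 these shares of raw counts were 0.169% at 9 months and 0.117% at 3 months. At least 1 scaled RPKM was reached by 40 of the 46 members at 9 months and likewise by 40 at 3 months.

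The 4 ADP/ATP carriers were all listed, and their balance differed between the libraries. SLC25A31 (ENSBTAG00000012826), the germ cell form, had 2057 counts at 9 months and 111 at 3 months. Its level was 33.5 scaled RPKM at 9 months and 1.96 at 3 months, a 17.1-fold difference [14.1 to 20.9]. Of all measured genes 6.91% had at least this log2 ratio. Its log2 ratio of 4.07 was the largest of the family with the prior count, next to 3.92 for UCP3, whose ratio without it was the larger at 21.9 [8.28 to 82.1]. The gene ranked 8th of 46 by level at 9 months and 39th at 3 months. A pseudogene overlaps it in the RefSeq annotation of assembly ARS-UCD2.0, which is a later build than that of the tables.

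SLC25A6 (ENSBTAG00000047418), a carrier of somatic tissues that mouse lacks, had 4922 counts at 9 months and 33561 at 3 months. It was 7.39-fold lower at 9 months [7.17 to 7.62]. A noncoding RNA gene overlaps it in ARS-UCD2.0, so its value is uncertain to that extent. SLC25A5 (ENSBTAG00000046037), which in humans and mice lies on the X chromosome and is associated with dividing cells, had 334 counts at 9 months and 2120 at 3 months. Its level was 7.89 scaled RPKM at 9 months and 54.3 at 3 months, so that it was 6.88-fold lower [6.13 to 7.74]. The intervals of these folds overlapped, with SLC25A6 at 13.3 times the level of SLC25A5 at 9 months and 14.3 times at 3 months. SLC25A4 (ENSBTAG00000013208), the form of heart and skeletal muscle, stood at 44.8 scaled RPKM at 9 months and 84.9 at 3 months, a ratio of 0.527 [0.499 to 0.556] that lay within 2-fold. Of the 4 scalings, only upper-quartile scaling put it past 2-fold.

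As a share of the summed level of the ADP/ATP carriers, which does not depend on the scaling between libraries, SLC25A31 made up 17.5% at 9 months and 0.214% at 3 months. SLC25A6 made up 54.9% at 9 months and 84.6% at 3 months, and remained the most abundant form in both. SLC25A4 made up 23.4% at 9 months and 9.28% at 3 months, and SLC25A5 made up 4.13% and 5.93% in the same order. SLC25A31 stood at 4.25 times the level of SLC25A5 at 9 months and at 0.0361 times at 3 months, so that their order was reversed. The summed level of the group was 191 scaled RPKM at 9 months and 916 at 3 months, a ratio of 0.209. The sum over all measured genes had a ratio of 0.492. By raw counts with no length correction the share of SLC25A31 was 21.9% at 9 months [21.0 to 22.7] and 0.281% at 3 months [0.231 to 0.339].

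**Figure D2:**
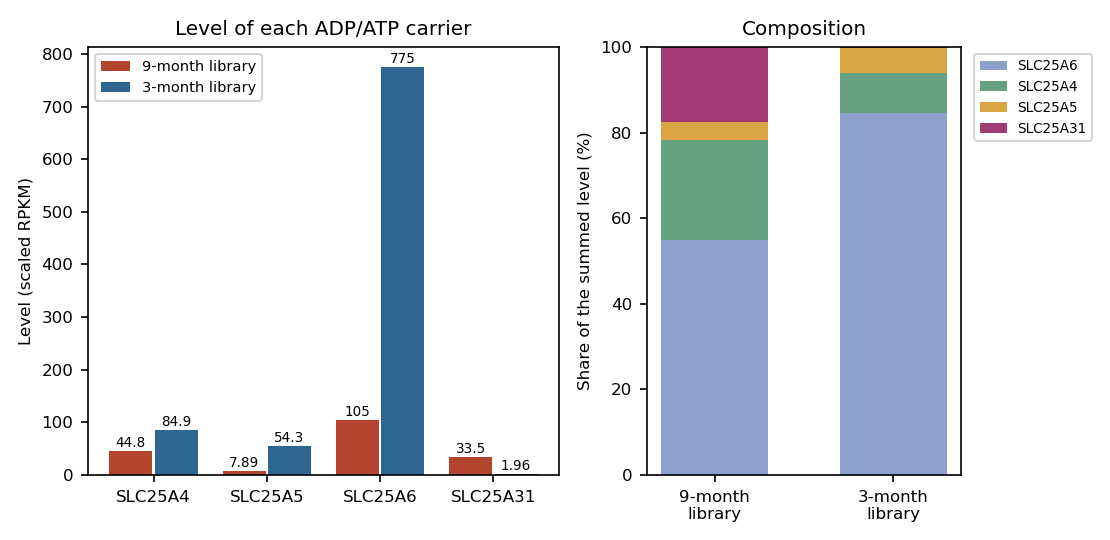
Left, bars of the level of each ADP/ATP carrier in scaled RPKM, with the 9-month library left of the 3-month library. Right, the share of each carrier in their summed level in percent, where SLC25A31 takes 17.5% at 9 months and 0.214% at 3 months.

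Phosphate enters the matrix through SLC25A3, the main phosphate carrier, and is exchanged for ATP-Mg by SLC25A23, SLC25A24, SLC25A25 and SLC25A41. SLC25A3 (ENSBTAG00000012890) had 2494 counts at 9 months and 4735 at 3 months, and was 2.06-fold lower [1.96 to 2.16]. Among the ATP-Mg/phosphate carriers SLC25A41 (ENSBTAG00000020017), which lacks the calcium-binding domain of the others, was higher and SLC25A23 was lower. SLC25A41 had 379 counts at 9 months and 109 at 3 months, a 3.21-fold difference [2.59 to 4.01]. SLC25A23 had 208 counts at 9 months and 384 at 3 months and was 2.001-fold lower [1.69 to 2.38], just past the threshold, and lay within 2-fold with DESeq2 size factors. These genes are adjacent in ARS-UCD2.0, so neighbouring carriers differed in opposite directions. SLC25A24 and SLC25A25 were close to level, with ratios of 1.024 [0.962 to 1.09] and 1.15 [1.04 to 1.28]. SLC25A24 held 48.2% of the summed level of these ATP-Mg/phosphate carriers at 9 months and 49.7% at 3 months, while SLC25A41 held 19.4% at 9 months and 6.38% at 3 months. By raw counts with no length correction the share of SLC25A41 was 10.8% at 9 months and 3.57% at 3 months.

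The uncoupling proteins and their relatives had members at both ends. UCP2 (ENSBTAG00000003692), a widely expressed member that carries C4 metabolites, had 9133 counts at 9 months and 821 at 3 months. It was 10.3-fold higher [9.56 to 11.0], and 9.13% of all measured genes had at least its log2 ratio. UCP3 (ENSBTAG00000005259), known from skeletal muscle, had 95 counts at 9 months and only 4 at 3 months, a 21.9-fold difference with a wide interval [8.28 to 82.1]. UCP2 and UCP3 are adjacent genes in ARS-UCD2.0 and were both higher, but UCP2 stood at 83.2 times the level of UCP3 at 9 months and at 178 times at 3 months. UCP1, the heat-producing protein of brown fat, had 4 counts in each library and was not measured.

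Of the relatives of the uncoupling proteins, SLC25A30 and SLC25A27 went the other way. SLC25A30, named from kidney, had 407 counts at 9 months and 1052 at 3 months and was 2.80-fold lower [2.50 to 3.15]. SLC25A27, also called UCP4 and known from brain, had 100 counts at 9 months and 263 at 3 months and was 2.85-fold lower [2.26 to 3.63]. SLC25A14, also called UCP5, had a ratio of 0.788 [0.683 to 0.910], within 2-fold. Markers of the tissues in which UCP1, UCP3 and SLC25A4 are best known had reads in both libraries. For comparison, UCP1 stood at 0.115 CPM at 9 months and 0.124 CPM at 3 months. UCP3 stood at 2.73 CPM at 9 months and 0.124 CPM at 3 months, and SLC25A4 at 60.3 CPM and 114 CPM in the same order. Whether reads of these carriers came from such tissues was not tested. The 5 brown fat markers summed to 6.83 CPM at 9 months and 2.05 CPM at 3 months, with 3 higher, 2 within 2-fold and none at 0. The 3 higher rest on few counts, with PRDM16 at 118 at 9 months and 19 at 3 months. PPARGC1A had 59 and 23 counts and CIDEA 26 and 4, in the same order. The skeletal and cardiac muscle markers, 6 rows for 5 symbols, summed to 20.7 CPM at 9 months and 32.8 CPM at 3 months, with 1 higher, 2 lower, 3 within 2-fold and none at 0. Of all measured genes 28.0% were higher and 22.8% lower, and marker lists this short are not read as apart from that background.

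Carriers of di- and tricarboxylates and of aspartate and glutamate link the citric acid cycle to the cytosol. SLC25A1 (ENSBTAG00000008528), which exports citrate for fatty acid and sterol synthesis, had 2619 counts at 9 months and 6068 at 3 months and was 2.51-fold lower [2.398 to 2.63]. SLC25A11, the oxoglutarate and malate exchanger of the malate-aspartate shuttle, had 631 counts at 9 months and 1253 at 3 months and was 2.15-fold lower [1.95 to 2.37]. The other carrier step of the shuttle is the aspartate-glutamate exchange, for which SLC25A12 and SLC25A13 are alternative carriers. SLC25A13 had a ratio of 1.88 [1.68 to 2.11] and SLC25A12 one of 1.05 [0.941 to 1.17]. SLC25A13 therefore stood at 1.25 times the level of SLC25A12 at 9 months and at 0.696 times at 3 months, so that the more abundant form was SLC25A13 at 9 months and SLC25A12 at 3 months. The glutamate carrier SLC25A22 had a ratio of 1.88 [1.69 to 2.09]. SLC25A21, a carrier of oxodicarboxylates, had 53 counts at 9 months and 28 at 3 months.

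Of the 8 carriers of nucleotides, coenzymes and vitamins 1 was higher, 1 was lower and 6 lay within 2-fold, against 8875 of the 18025 measured genes. SLC25A33 (ENSBTAG00000003177), a carrier of pyrimidine nucleotides, had 989 counts at 9 months and 324 at 3 months and was 2.82-fold higher [2.48 to 3.20]. Its relative SLC25A36 had a ratio of 0.862 [0.799 to 0.929] and was the more abundant in both libraries, at 1.71 times the level of SLC25A33 at 9 months and 5.58 times at 3 months. SLC25A16, whose yeast relative is linked to coenzyme A, had 207 counts at 9 months and 530 at 3 months and was 2.77-fold lower [2.36 to 3.27]. The folate carrier SLC25A32 and the S-adenosylmethionine carrier SLC25A26 lay just inside 2-fold, with ratios of 1.92 [1.70 to 2.17] and 1.89 [1.71 to 2.09], and both were past it with plain library totals. The coenzyme A carrier SLC25A42 had a ratio of 0.995 [0.857 to 1.16], and SLC25A17 of the peroxisome one of 0.682 [0.639 to 0.728].

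Of the 7 measured amino acid, carnitine and glutathione carriers 6 lay within 2-fold and 1 was lower, against 8875 of the 18025 genes measured in all within 2-fold. SLC25A39 (ENSBTAG00000019463), which brings glutathione into mitochondria, had 6191 counts at 9 months and 3278 at 3 months, with a ratio of 1.74 [1.67 to 1.82]. Its relative SLC25A40 had a ratio of 1.62 [1.37 to 1.91], and SLC25A39 made up 91.2% of their summed level at 9 months and 90.6% at 3 months. The pair thus kept its proportions. SLC25A15, which carries ornithine, had 201 counts at 9 months and 423 at 3 months and was 2.28-fold lower [1.92 to 2.71]. SLC25A20, which brings acylcarnitines in for fatty acid oxidation, had a ratio of 0.653 [0.596 to 0.715]. The glycine carrier SLC25A38 had a ratio of 1.45 [1.32 to 1.60], SLC25A29, a carrier of basic amino acids, 1.09 [1.023 to 1.16] and SLC25A44, a carrier of branched-chain amino acids, 1.08 [1.01 to 1.15].

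The iron carriers, or mitoferrins, are SLC25A37, best known from red cell precursors, and SLC25A28 of other tissues. SLC25A28 stood at 35.1 scaled RPKM at 9 months and 34.9 at 3 months, and SLC25A37 at 6.30 at 9 months and 11.0 at 3 months. Neither passed 2-fold, and SLC25A28 was the more abundant in both, with 84.8% of their summed level at 9 months and 76.1% at 3 months. The red blood cell markers were near the floor, with HBB at 0 counts at 9 months and 31 at 3 months, and ALAS2 at 0 and 2 counts. Of the 3 measured rows of that list all were lower. They include paired HBA rows with identical counts, 7 at 9 months and 20 at 3 months, which may hold the same reads. With both HBA rows, the summed expression of the list was 0.402 CPM at 9 months and 2.27 CPM at 3 months.

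Among the members placed in no transport group, SLC25A43, SLC25A34, SLC25A53 and SLC25A48 passed 2-fold. SLC25A43 (ENSBTAG00000001007) had 18 counts at 9 months and 198 at 3 months and was 11.9-fold lower [7.35 to 20.5], a log2 ratio reached or undercut by only 1.05% of all measured genes. It is adjacent to SLC25A5 in ARS-UCD2.0, and both genes were among the 4 members with the lowest log2 ratios. SLC25A34 had 48 counts at 9 months and 291 at 3 months and was 6.57-fold lower [4.83 to 9.11]. SLC25A53 (ENSBTAG00000000441) had 359 counts at 9 months and 58 at 3 months and was 5.71-fold higher [4.32 to 7.67]. It overlaps ZCCHC18 in ARS-UCD2.0, so its value is uncertain. SLC25A48 had 17 counts at 9 months and 2 at 3 months, a ratio of 7.84 [1.86 to 69.99] with little depth behind it. The outer membrane protein SLC25A46, known from mitochondrial shape and fusion, had a ratio of 1.29 [1.16 to 1.43]. SLC25A35 had a ratio of 1.81 [1.54 to 2.13] and overlaps RANGRF in ARS-UCD2.0, whose log2 ratio was 3.17, so that the value of SLC25A35 is uncertain too. The same holds for SLC25A21, SLC25A25 and SLC25A26, which overlap PAX9, NAIF1 and LRIG1 there, with log2 ratios of 5.37 for PAX9, 0.90 for NAIF1 and -0.20 for LRIG1. SLC25A15, SLC25A17, SLC25A20, SLC25A34 and SLC25A37 overlap protein-coding genes there that have no name beyond an identifier, and their values are uncertain in the same way. Noncoding RNA genes overlap SLC25A3, SLC25A6, SLC25A13, SLC25A41 and SLC25A43 there, and a pseudogene overlaps SLC25A14, which leaves the same doubt. SLC25A45, with 1 count at 9 months and 4 at 3 months, and SLC25A47, with 1 and 0 counts, were not measured.

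The human genes of SLC25A5, SLC25A14, SLC25A43 and SLC25A53 lie on the X chromosome outside the region shared with the Y chromosome. Of these 4 members 1 was higher, 2 were lower and 1 lay within 2-fold, against the 28.0% higher and 22.8% lower of all measured genes.

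**Figure D3:**
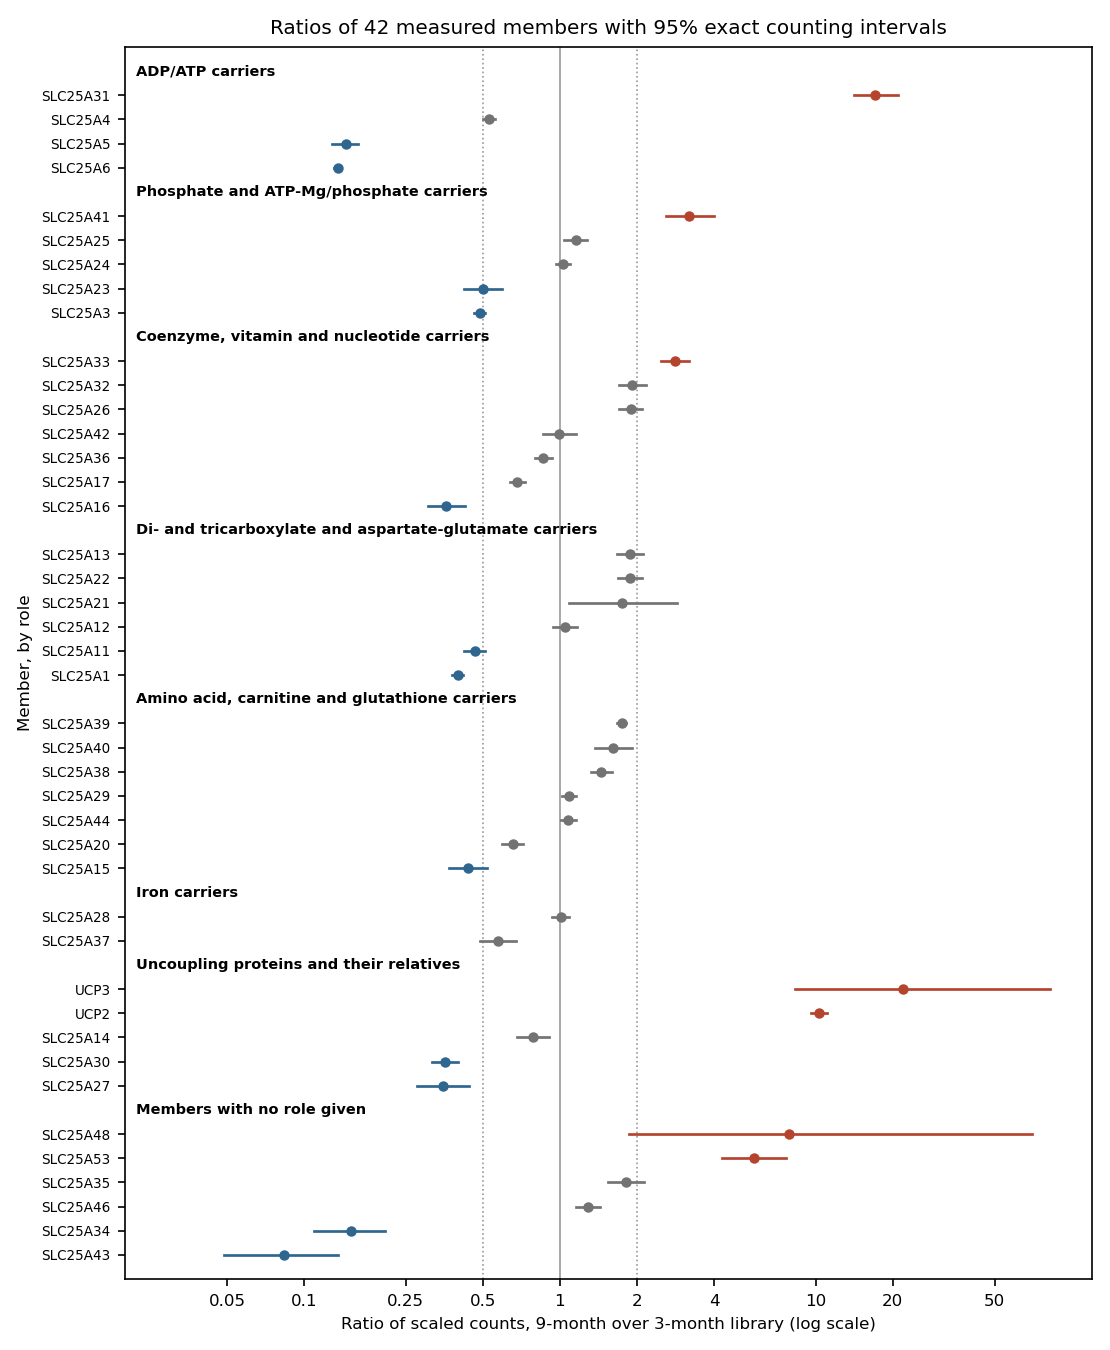
Ratio of scaled counts of the 9-month to the 3-month library on a log axis for 42 measured members, by role. Lines are 95% exact counting intervals, red marks the 7 higher and blue the 12 lower members, and the dotted lines mark a 2-fold difference either way.

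Other genes of mitochondrial transport and metabolism were set beside the carriers, with expression in CPM. Their counts stand against the 28.0% higher and 22.8% lower of all measured genes, and in lists this short a few genes set the share, so no list is read as apart from that background. In the import machinery that places carriers in the inner membrane, 9 of 11 measured genes lay within 2-fold and 2 were lower, with a median log2 ratio of 0.06. TIMM8A, a chaperone of the space between the membranes, stood at 12.7 CPM at 9 months and 39.3 CPM at 3 months, and was 3.104-fold lower [2.78 to 3.47]. Other transporters of the mitochondrial membranes, 21 in all, had 4 members higher, 6 lower and 11 in between, and their median was -0.35. LETM2 was 4.67-fold higher [3.92 to 5.60] and SFXN2 3.49-fold lower [3.16 to 3.86]. SLC25 relatives listed under other names also split, with MTCH2 3.67-fold higher [3.50 to 3.84] and MTCH1 2.47-fold lower [2.39 to 2.56], while MCART1, an older symbol of SLC25A51, lay within 2-fold.

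The partners of the ADP/ATP carriers differed among themselves. Of 17 rows for nuclear ATP synthase genes and their inhibitor none was higher, 4 were lower and 13 lay within 2-fold, with a median of -0.63. ATP5G2, one of the genes for the membrane ring, was 3.29-fold lower [3.16 to 3.44]. Among adenylate and creatine kinases, which pass on the phosphate of ATP, 4 of 9 were higher and none lower. AK8 stood at 79.1 CPM at 9 months and 3.92 CPM at 3 months, a 20.2-fold difference [16.9 to 24.3], and AK7, a kinase of cilia and flagella, was 14.8-fold higher [11.8 to 18.7].

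Enzymes that use the metabolites of the carriers had members on both sides. In the malate-aspartate shuttle and citrate list 3 of 9 were lower and none higher. ACLY, which splits the exported citrate, was 4.15-fold lower [3.996 to 4.31] and MDH1, the cytosolic malate dehydrogenase, 3.02-fold lower [2.87 to 3.17]. In the carnitine list CPT1B, which makes acylcarnitines, stood at 109.9 CPM at 9 months and 12.01 CPM at 3 months and was 9.15-fold higher [8.24 to 10.2], and the other 3 measured genes lay within 2-fold. In the mitochondrial folate list MTHFD1L was 3.71-fold higher [3.42 to 4.02] and SHMT2 2.88-fold lower [2.58 to 3.20], with the other 3 within 2-fold. Of 7 iron-sulphur and haem enzymes 4 were lower and none higher, and ALAS1, the first enzyme of haem synthesis, was 4.58-fold lower [4.36 to 4.83]. Among regulators of mitochondrial biogenesis 3 of 6 were higher and none lower, with TFAM, which packs and transcribes mitochondrial DNA, 6.51-fold higher [6.01 to 7.05]. Mitochondrially encoded genes took 7.39% of the counts at 9 months and 8.68% at 3 months.

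**Figure D4:**
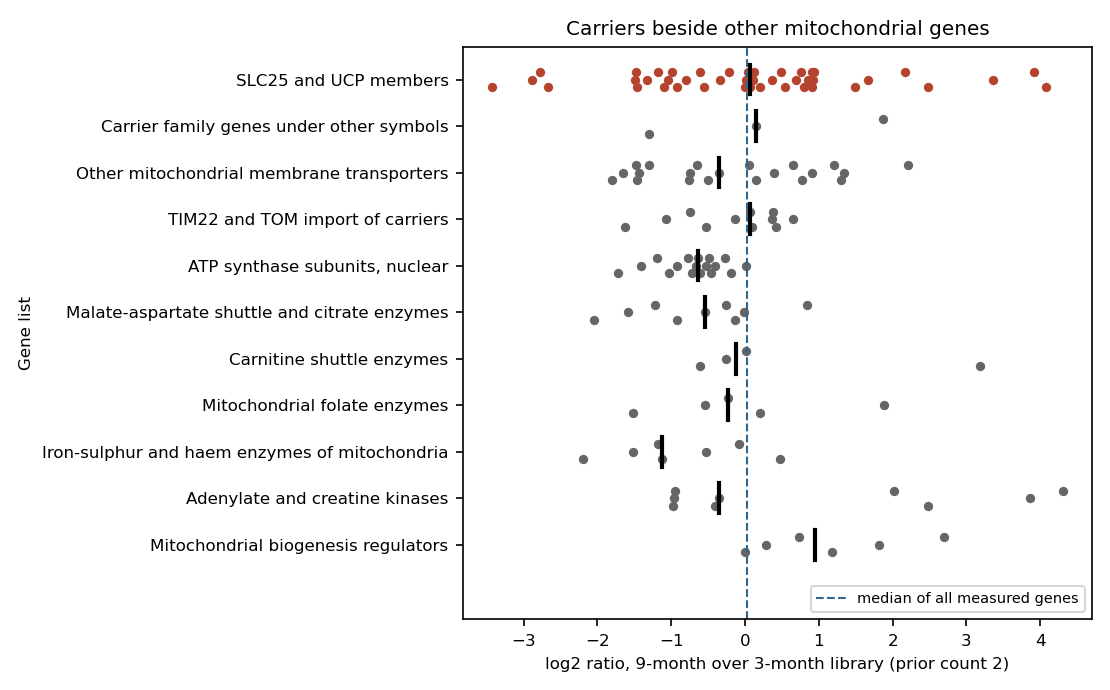
Log2 ratio of the 9-month to the 3-month library for each measured gene of the carriers and of the lists set beside them, with a black bar at each list's median and a dashed line at the median of all measured genes, 0.02. The carriers spread from -3.43 to 4.07 around a median of 0.07, and the ATP synthase genes lie at or below 0.01.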

How the data were processed

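RNA from seminiferous tubules of 1 calf per age was sequenced, and the members and gene lists were chosen with earlier results of these data known. Reads had passed through Trimmomatic 0.33 and STAR 2.4.0 against UMD3.1, a bovine build, per the submitters' processing notes. How reads were counted, with which annotation, on which strand and with what rule for several alignments is not given in the sources used. The deposited tables hold raw counts per Ensembl gene, a gene length and a deposited RPKM, which equalled the count over length and table total to within 0.000496% at 9 months and 0.000492% at 3 months. The deposited RPKM served only for that check.

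Counts were scaled with TMM, the trimmed mean of M values, of edgeR 4.0.16 (R 4.3.3), whose factors were 1.17 at 9 months and 0.855 at 3 months. Depth sets the precision, with a floor of 3 counts, or 0.0861 CPM at 9 months and 0.0933 at 3 months. With 1 library per age no test was possible and no p-value is given. A gene was measured with at least 10 counts over both libraries. Intervals are 95% exact (conditional binomial, Clopper-Pearson) and cover counting error only. Calls and intervals were tested on simulated counts that held counting error only and far fewer changed genes than these libraries. That checks the calculation and cannot show how far calls would hold between animals. Alternatives were plain library totals, DESeq2 1.42.0 size factors, upper-quartile scaling, TMM without mitochondrially encoded genes, other count minimums and other prior counts. Every member could be named, and 1 is counted but not reported here by name. From every other list the rule took the 2 highest and the 2 lowest ratios among genes with at least 50 counts, of which some are printed. Python 3.11.15 with scipy 1.17.1 did the rest.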

Additional observations from a re-analysis of the deposited data

How the results depend on the processing

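With plain library totals 15 members were higher and 7 lower, and the median log2 ratio was 0.52, since that scaling shifts every log2 ratio by 0.45. With upper-quartile scaling the median turned to -0.034, beside a median over all measured genes of -0.08. The difference between the medians of members and of all measured genes was 0.05, 0.06, 0.05 and 0.04 with TMM, plain totals, DESeq2 size factors and upper-quartile scaling. DESeq2 size factors changed 1 member call and upper-quartile scaling 1, against 13 with plain totals. Other count minimums and leaving out mitochondrially encoded genes kept both counts of members within 1.5 times, and the sign of the median held under these and under other prior counts. By raw counts with no length correction SLC25A31 took 21.9% of the ADP/ATP carriers at 9 months. No paired analysis was possible because each age has 1 library, and no replicate could be left out. Depth limits UCP1, SLC25A45, SLC25A47 and SLC25A48, which had under 20 counts in each library.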

Other observations

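The members with the highest mean level over both libraries had a lower median log2 ratio than the rest, at -0.38 for the first 10 and 0.20 for the other 33. Across the 43 measured members Spearman's rho between log2 ratio and mean level was -0.22, and across all 18025 measured genes -0.23. Between log2 ratio and gene length rho was 0.20 across the members and 0.06 across all measured genes. These are descriptions across genes of the same pair of libraries, and genes are not independent replicates.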
